A study of Homo sapiens with 9 samples.

Results

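Histone genes were followed in RNA-Seq of PC3 xenografts after treatment with antibody-drug conjugates. They were taken as every listed gene whose older symbol begins with HIST1H to HIST4H, H3F3, H2AF or H1F. This gave 71 genes among 16204 listed in either of 2 count tables. Of these, 60 were cluster genes (HIST symbols) and 11 were variant genes, and 68 were in both tables.

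Cluster histone genes encode the bulk histones that package newly copied DNA. They lack introns, are transcribed chiefly in S phase, and give mRNAs that end in a conserved stem-loop, bound by SLBP, in place of a poly(A) tail. Variant genes are transcribed outside S phase too, give polyadenylated mRNAs, and supply histones such as H3.3 and H2A.Z that replace the bulk forms. H2AFX, the H2A phosphorylated beside DNA breaks, is known to yield mRNAs of both kinds.

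PC3 is an established human cell line from a prostate cancer bone metastasis. It was grown under the skin of male NSG mice, a NOD strain with the Prkdc scid mutation and no Il2rg, which lacks T, B and NK cells but keeps its own fibroblasts, vessels, macrophages and muscle. Per the series record the mice were 11 weeks old when injected and received, at a tumor volume of 90 mm3, weekly PBS or 5 mg/kg of conjugate for 5 cycles. For the experiment at this dose with both conjugates, the study's methods give another age, tumor volume and number of cycles, so these conditions are unresolved too. There were 3 PBS, 3 P-DXd-titled and 3 T-DXd-titled libraries, each from another animal code. P-DXd is directed at HER3 and T-DXd at HER2, and both carry deruxtecan, a topoisomerase I inhibitor. The treatment field names the other conjugate for each treated library, so groups are called by title and the conjugate in each is unresolved. Where both conjugates are compared with PBS, all 6 treated libraries enter, whatever the label.

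Total counts ranged from 54481702 to 125538606, with the 3 PBS libraries the deepest. The libraries were made with an mRNA kit, and neither the labels nor the methods state whether mouse reads were removed. How far the kit captured mRNAs without a poly(A) tail was not tested, so cluster gene levels describe only the mRNA it captured. Among PC3 markers, KRT8 was 461 ± 58.5 CPM (reads per 1e+06 counted, library sizes scaled by TMM; SD, n = 3) in PBS, and KLK3 and KLK2 were not in both tables. The summed level of 10 skeletal muscle markers ranged from 2.33 to 45.4 CPM in PBS and from 71.6 to 4474 CPM after treatment, highest in P-DXd-titled replicate 2. The 9 of 13 macrophage markers in both tables summed to 7.20 to 8.01 and 20.8 to 42.0 CPM, and the 14 fibroblast markers to 1449 to 2427 and 1850 to 3069 CPM. Their part in the histone values was not tested, and in bulk tumors fewer cells of a type cannot be told apart from less RNA per cell.

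The stem-loop was looked for in GENCODE v44 transcripts (GRCh38) of each gene. It was found in all 60 cluster genes and, among variants, in H2AFX. Its sequences are shown because genes that rose and genes that fell carried the same or nearly the same loop. Capitals mark the loop between both arms of the stem, on the transcribed strand.

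HIST1H2AC: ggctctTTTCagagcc
HIST2H2BE: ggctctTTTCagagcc
HIST1H3B: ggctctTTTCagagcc
HIST1H4C: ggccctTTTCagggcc
HIST3H3: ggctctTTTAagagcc
HIST2H4A: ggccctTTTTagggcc
H2AFX: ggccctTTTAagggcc

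The first form was carried by 36 of the 61 genes, among them genes that rose and genes that fell after treatment. It lies at chr6:26124669-26124684 (plus strand) for HIST1H2AC, at chr1:149886188-149886203 (minus) for HIST2H2BE and at chr6:26031597-26031612 (minus) for HIST1H3B. The genes differed in what follows the loop. In 11 cluster genes at least 1 annotated transcript ran 100 or more bases past it (by 1729 bases in HIST2H2BE), here called an extended transcript. HIST1H4C transcripts ended 5 bases after the loop and those of HIST1H3B 8 bases after it.

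The summed reads of cluster histone genes made up a larger share of the counts after either conjugate. Over the 57 cluster genes in both tables, the sum was 383, 345 and 397 CPM in PBS replicates 1 to 3. It was 575, 651 and 739 CPM in the P-DXd-titled and 655, 642 and 658 CPM in the T-DXd-titled libraries. Each treated library thus lay above each PBS library, and the ratio of the means was 1.74. Without HIST1H2AC, the largest contributor, the ratio was 1.39. The variant genes summed to 2820 ± 304 CPM in PBS, 2944 ± 121 in the P-DXd-titled group and 2946 ± 109 in the T-DXd-titled group (SD, n = 3), and these groups overlapped.

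**Figure D1:**
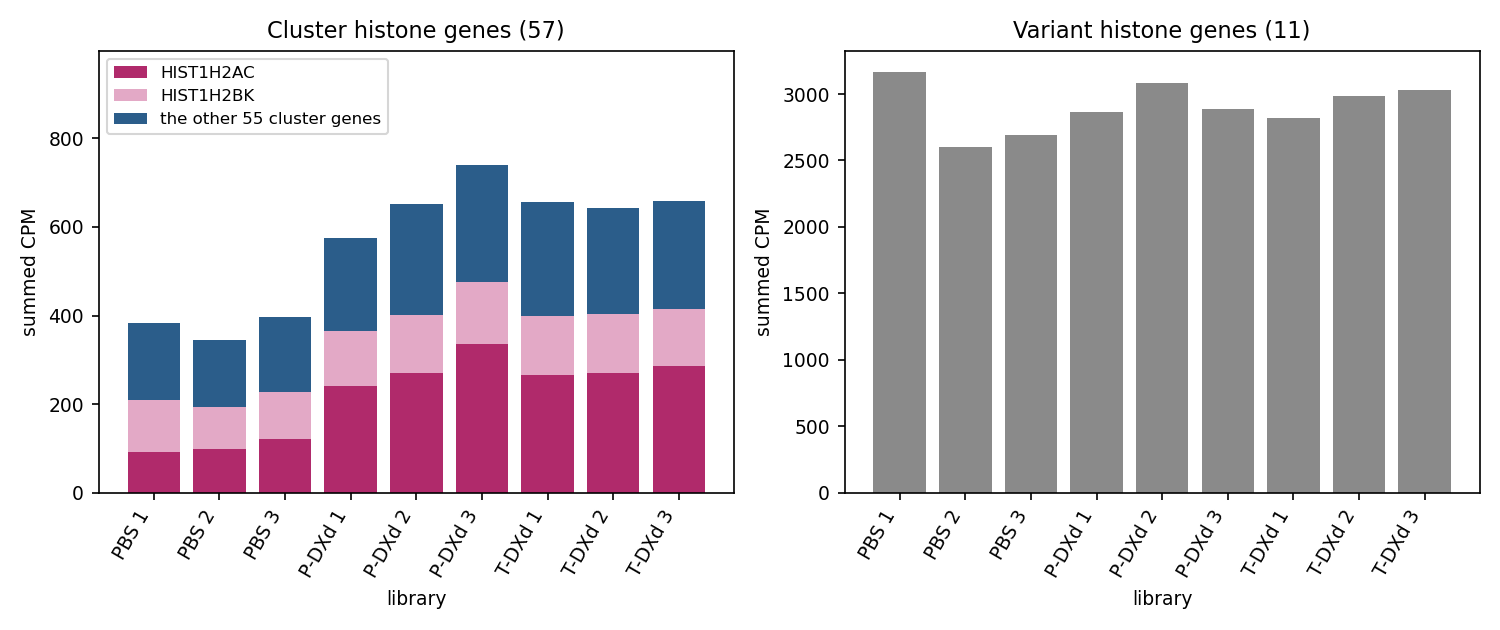
Summed CPM of the 57 cluster genes (left, split into HIST1H2AC, HIST1H2BK and the other 55) and of the 11 variant genes (right) in each of the 9 libraries, groups named by title. The cluster sum was 345 to 397 CPM in PBS and 575 to 739 CPM after treatment, while the variant sums overlapped.

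The sum rested on few genes and does not describe cluster genes in general. In the test given below, 20 of the 46 tested cluster genes had a positive log2 fold change and 26 a negative one. HIST1H2AC, HIST1H2BK, HIST1H1C, HIST3H2A, HIST1H4H and HIST2H2BE held 76.4% to 79.6% of the cluster CPM in PBS and 86.1% to 88.2% after treatment. HIST1H2AC alone held 24.2% to 30.5% and 40.5% to 45.3%. These shares are of counts and were not corrected for transcript length.

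To ask which histone genes differed, both conjugates were compared with PBS by edgeR's quasi-likelihood test. A gene was called at a Benjamini-Hochberg adjusted p of at most 0.05 and a fold change of at least 1.5. The count filter left 46 cluster genes and all 11 variants. It kept any gene with enough counts in 3 libraries, so scarce genes could enter through the group where they were high. Among the cluster genes 8 were higher (17.4%) and 9 lower (19.6%), beside 15.2% higher and 17.1% lower of all 15070 genes tested, so the number called was near that of any genes. Of those called lower, HIST3H3, HIST1H3A, HIST1H3B, HIST1H3C and HIST1H4C would not have passed the filter on treated libraries alone. HIST2H2AA3 and HIST2H4A, called higher, would not have passed on PBS libraries alone. For these genes the filter bears on the direction called. With at least 10 counts in every library, 11 cluster genes were called. The median log2 fold change was -0.16 for cluster genes, 0.12 for variants and -0.01 for all genes. Without PBS replicate 1, 10 cluster genes were higher and 5 lower. All 6 treated libraries lay above all 3 PBS libraries for 10 of the 46 cluster genes and below them for 8, beside 26.2% and 24.4% of all genes. The other 11 cluster genes in both tables had 14 to 64 counts over the 9 libraries together and were not tested, nor were HIST2H3A, HIST2H3C and HIST2H2AA4, listed in 1 table each.

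**Figure D2:**
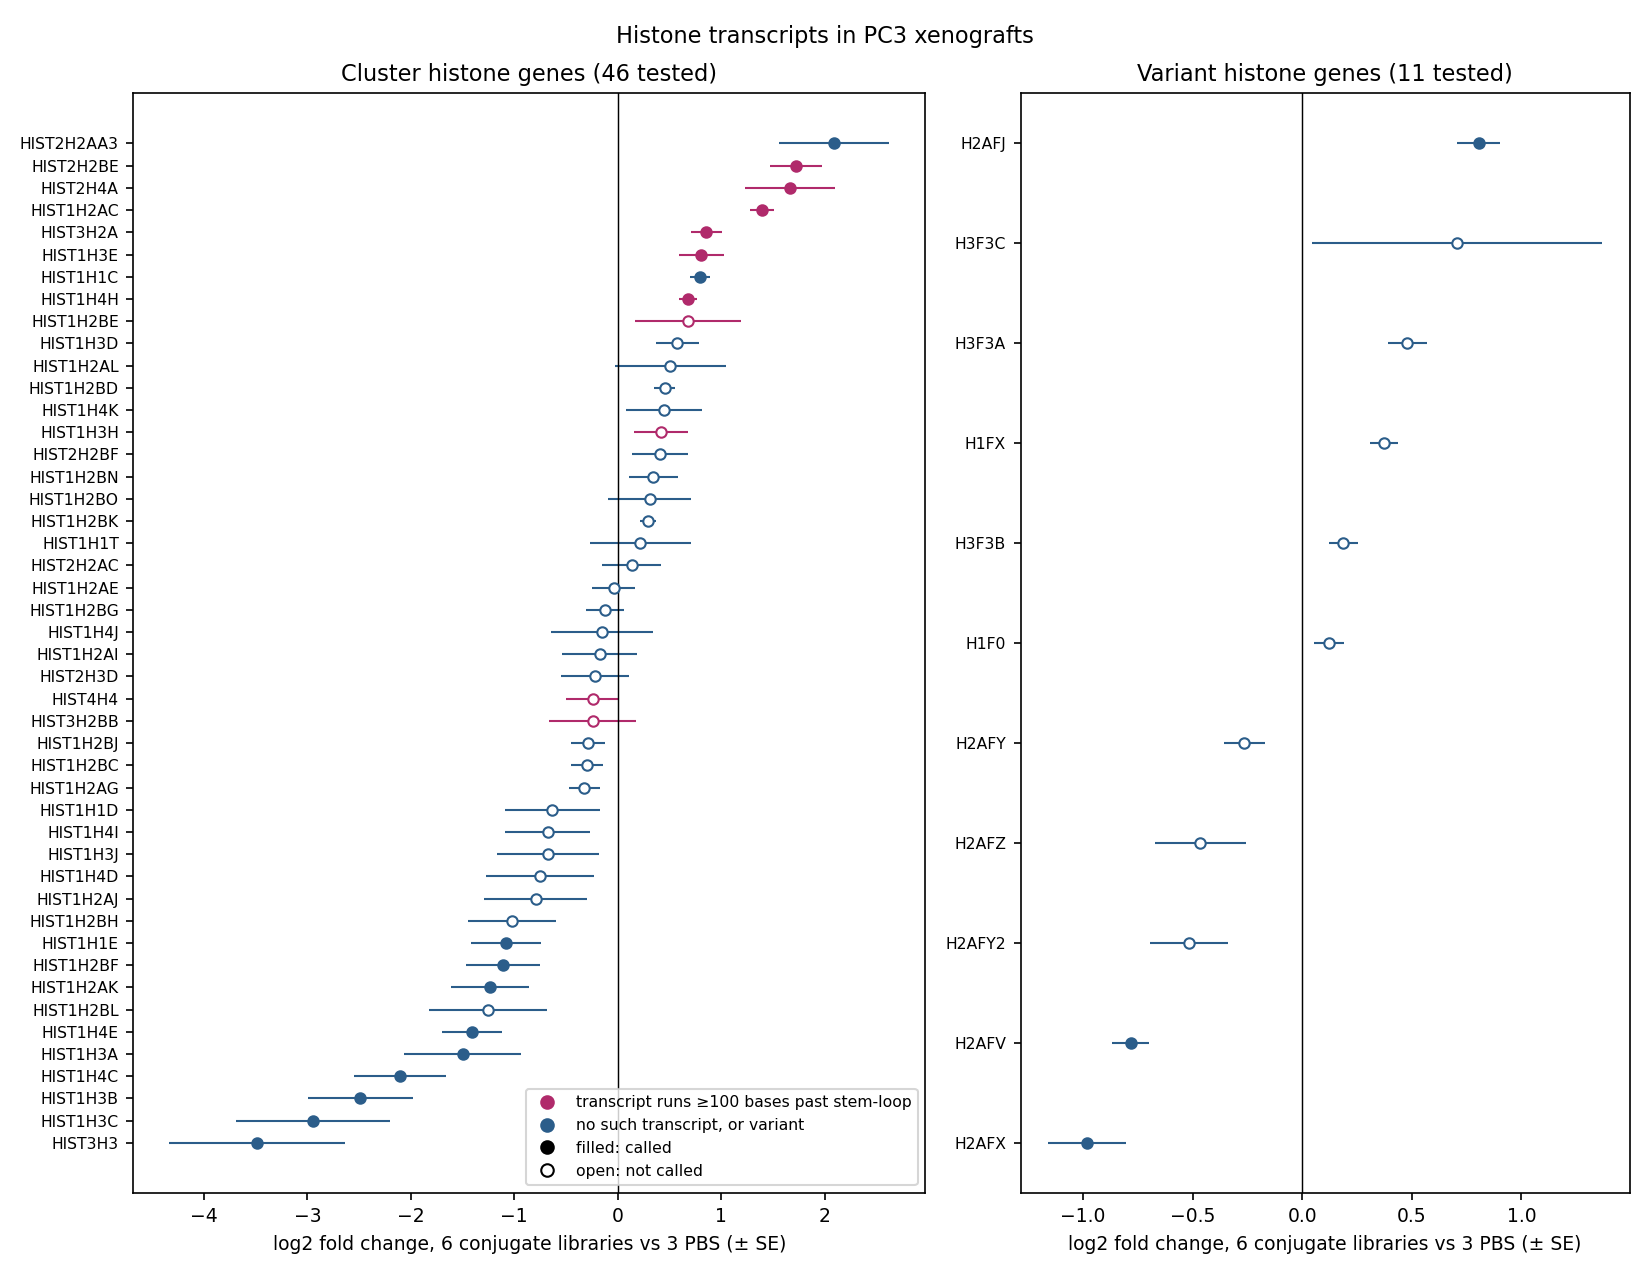
Log2 fold change (x axis, ± SE) of each tested cluster gene (left) and variant gene (right), 6 conjugate libraries against 3 PBS. Filled points were called; the 10 cluster genes with an extended transcript (magenta) ranged from -0.24 to 1.72 and 6 of them were called higher.

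HIST1H2AC, an H2A gene of the chromosome 6 cluster (ENSG00000180573.8), had the highest CPM of the cluster genes averaged over all 9 libraries, although HIST1H2BK was higher in PBS (mean 106 against 104 CPM). It was at 92.4, 98.7 and 121 CPM in PBS, 240, 269 and 335 CPM in the P-DXd-titled group and 265, 271 and 285 CPM in the T-DXd-titled group. The lowest treated library was above the highest PBS library. The log2 fold change was 1.395 ± 0.119 (SE; adjusted p = 9.48e-06).

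HIST2H2BE, an H2B gene of the chromosome 1 cluster, rose by the largest factor of the well counted genes. It was at 5.27, 11.6 and 13.7 CPM in PBS, 30.9, 32.0 and 42.6 CPM in the P-DXd-titled group and 32.2, 32.9 and 33.3 CPM in the T-DXd-titled group. PBS replicate 1 was lowest and no treated library reached down to the PBS values. The log2 fold change was 1.72 ± 0.25 (SE; adjusted p = 0.000250).

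HIST1H1C, which encodes the linker histone H1.2, was 33.7, 33.7 and 38.5 CPM in PBS against 50.5 to 69.3 CPM after treatment (log2 fold change 0.79 ± 0.10, SE). HIST3H2A, an H2A gene of the small chromosome 1 cluster, was 24.2, 14.8 and 16.6 CPM against 30.3 to 38.4 CPM (0.85 ± 0.15). HIST1H4H, an H4 gene, was 19.1, 17.4 and 19.2 CPM against 27.0 to 33.4 CPM (0.68 ± 0.09). In all 3 genes treated and PBS libraries did not overlap. HIST1H3E, an H3 gene at 1.67, 2.56 and 2.83 CPM in PBS and 3.27 to 5.35 CPM after treatment, rose as well (0.81 ± 0.22).

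The last 2 called higher were sparse and not unique, and are named after their values were seen. HIST2H4A had 4, 5 and 6 reads in PBS and 8 to 13 after treatment, and HIST2H2AA3 had 2, 7 and 2 against 7 to 12. Of their transcripts, 94.88% and 100% of 100-base windows also occurred in another gene, so how reads were divided between copies decides their values. HIST1H2BK, an H2B gene, did not meet the fold change minimum: 117, 94.8 and 107 CPM in PBS against 126 to 141 CPM (0.29 ± 0.08, adjusted p = 0.00875).

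The 9 cluster genes called lower were scarce, the highest library value being 3.36 CPM. Together they summed to 7.43 ± 2.68 CPM in PBS, 2.82 ± 0.50 in the P-DXd-titled group and 2.51 ± 0.29 in the T-DXd-titled group (SD, n = 3). The 8 called higher summed to 189 ± 19.9, 441 ± 62.5 and 444 ± 11.3 CPM. These sums describe genes picked by the same values.

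Among the genes called lower 4 encode H3. HIST1H3B was at 1.06, 0.443 and 0.567 CPM in PBS, 0.216, 0.240 and 0.0458 in the P-DXd-titled group and 0.0830, 0.0676 and 0.0918 in the T-DXd-titled group. Each treated value was below each PBS value (-2.49 ± 0.51, SE; adjusted p = 0.00191). HIST1H3C had 76, 29 and 44 reads in PBS and 0 to 16 after treatment (-2.95 ± 0.74). HIST3H3, which encodes the testis histone H3t, had 13, 29 and 17 reads in PBS, but 6 in all over the 6 treated libraries (-3.48 ± 0.85). Scaled for the deeper PBS libraries, these were 0.145, 0.225 and 0.151 CPM against at most 0.0676 CPM. No treated library of HIST3H3 reached the level of the count filter, so its test could show a fall only. HIST3H3 and HIST1H3C were under the count minimum for naming genes and were named after their values were seen. HIST1H3A fell by 1.498 on the log2 scale, its groups overlapped, and its call was lost without any 1 of 6 libraries: PBS replicates 1 and 2 and replicates 1 and 3 of each conjugate group. It was also lost with a block on the first digit of the animal code (adjusted p = 0.0751), with counts thinned to equal depth (0.126) and with no filter on low counts (0.0506).

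HIST1H4C and HIST1H4E encode H4. HIST1H4C was at 0.745, 0.350 and 0.417 CPM in PBS, and at 0.0459 to 0.198 CPM after treatment (-2.10 ± 0.44, SE; adjusted p = 0.00236). HIST1H4E was at 3.36, 2.24 and 1.56 CPM in PBS, and at 0.649 to 1.26 CPM after treatment (-1.41 ± 0.29; adjusted p = 0.00216). Neither gene's groups overlapped.

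HIST1H2AK (H2A), HIST1H2BF (H2B) and HIST1H1E (the linker histone H1.4) fell by 1.24, 1.11 and 1.08 on the log2 scale. PBS replicate 1 was the highest library for each. Without it the adjusted p was 0.0933, 0.116 and 0.0520 and the calls were lost, and that of HIST1H1E was also lost without PBS replicate 2 (0.0525).

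**Figure D3:**
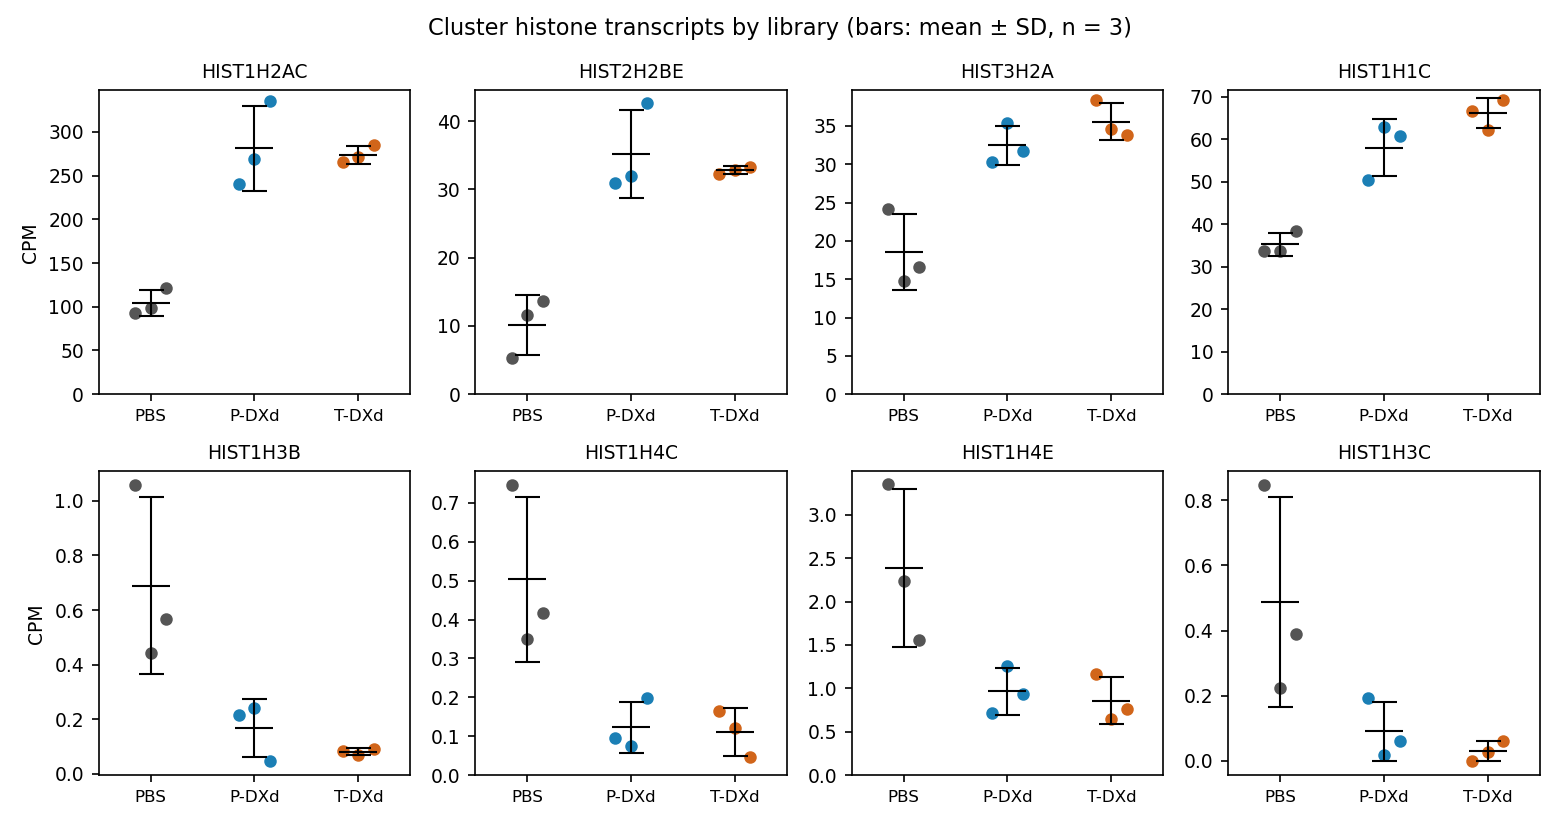
CPM of 4 cluster genes that rose (top) and 4 that fell (bottom); points are libraries, bars mean ± SD, n = 3, groups named by title, and y axes differ between panels. HIST1H2AC was 92.4 to 121 CPM in PBS and 240 to 335 CPM after treatment; HIST1H3B was 0.443 to 1.06 and 0.0458 to 0.240 CPM.

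Cluster genes were also divided by their annotated mRNA end, although some of either kind rose and others were not called. Of 10 tested cluster genes with an extended transcript 6 were higher and 0 lower, with a median log2 fold change of 0.74, beside 15.2% higher and 17.1% lower of all genes. In edgeR the same 6 had an unadjusted p under 0.05, and on the same counts DESeq2 called these 6 higher and 0 lower. Among the 6 was HIST2H4A, sparse and shared with a copy as given above, which passed the count filter through treated libraries. HIST1H2AC, HIST2H2BE, HIST3H2A and HIST1H4H, also of this kind, were among the best counted cluster genes, so power may differ between the kinds. Of 36 without one, 2 were higher (HIST1H1C and HIST2H2AA3) and 9 lower, with a median of -0.29. The sum over the first kind was 158 ± 16.8 CPM in PBS, 388 ± 58.8 in the P-DXd-titled group and 382 ± 8.16 in the T-DXd-titled group. The sum over the second was 217 ± 19.6, 267 ± 25.1 and 270 ± 6.88 CPM. This division was made after the fold changes were seen, so it has no test. It misses transcripts that skip the loop: HIST1H2BC and HIST1H2BN, placed in the second kind, have transcripts of up to 2548 and 4137 bases. The annotated ends also need not be those of the gene models counted. HIST3H2A and HIST1H3E, of the first kind, have listed spans of 496 and 462 bases, and HIST1H2BK, of the second, 8547 bases. With genes whose listed span exceeds 1000 bases added to the first kind, 6 were higher and 2 lower of 22 (median 0.38), and 2 higher and 7 lower of the other 24 (median -0.43). Whether the reads came from polyadenylated ends was not tested, since the tables hold 1 count per gene.

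By protein, called higher and lower were 1 and 1 of 4 tested H1 genes, 3 and 1 of 10 H2A, 1 and 1 of 14 H2B, 1 and 4 of 9 H3, and 2 and 2 of 9 H4, where 15.2% and 17.1% of all genes were. By position, they were 4 and 8 of 36 in HIST1, 3 and 0 of 6 in HIST2 and 1 and 1 of 3 in HIST3. HIST4H4, the only HIST4 gene, was not called (-0.24 ± 0.26).

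HIST1H2AC and HIST1H2BC are transcribed away from each other. The 245 bases between their RefSeq starts, chr6:26123927-26124171 (GRCh38.p14), are shown on the HIST1H2AC strand because only one of these neighbours was called, a choice made after their values were seen. Capitals mark the letters CCAAT (the box bound by NF-Y), the core promoter letters TATAAA and the octamer ATGCAAAT, each searched on either strand.

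HIST1H2AC-HIST1H2BC: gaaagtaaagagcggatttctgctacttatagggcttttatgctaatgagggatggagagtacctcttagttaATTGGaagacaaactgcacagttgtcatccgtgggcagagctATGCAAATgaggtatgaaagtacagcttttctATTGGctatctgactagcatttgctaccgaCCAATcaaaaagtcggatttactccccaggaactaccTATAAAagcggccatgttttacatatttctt

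HIST1H2BC was at 12.7, 11.4 and 14.7 CPM in PBS, 9.23, 12.0 and 14.0 CPM in the P-DXd-titled group and 10.4, 9.86 and 8.48 CPM in the T-DXd-titled group. The groups overlapped and it was not called (-0.30 ± 0.16, SE; adjusted p = 0.132), beside 1.395 ± 0.119 for HIST1H2AC. The octamer was in 20 of the 52 cluster gene promoters found in RefSeq (250 bases before to 50 after the start; 38.5%), and in 1.77% of 35116 promoters of that length. CCAAT was in 82.7% of cluster promoters against 34.6% of all, and TATAAA in 67.3% against 11.5%. Promoters of divergent neighbours such as HIST1H2AC and HIST1H2BC overlap, and either strand was searched, so a motif between them was counted for both genes. Among tested genes the octamer was in 2 of 7 promoters of genes called higher, 1 of 8 lower and 12 of 25 not called.

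Of the 11 variant genes 1 was called higher (9.09%) and 2 lower (18.2%), again beside 15.2% and 17.1% of all genes. H2AFX was at 169, 101 and 83.1 CPM in PBS, 64.9, 55.1 and 62.0 CPM in the P-DXd-titled group and 57.7, 62.6 and 61.3 CPM in the T-DXd-titled group. All treated libraries were below PBS, of which replicate 1 was highest. The log2 fold change was -0.98 ± 0.18 (SE; adjusted p = 0.000904), and -0.61 without that replicate.

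H2AFV and H2AFZ encode the 2 forms of H2A.Z, a histone of promoters and regulatory DNA. H2AFV was at 152, 132 and 129 CPM in PBS and 74.7 to 93.2 CPM after treatment, with no overlap (-0.78 ± 0.08, SE; adjusted p = 3.86e-05). H2AFZ was at 437, 219 and 203 CPM in PBS and 194 to 245 CPM after treatment, so that PBS replicate 1 stood alone. H2AFZ was not called (-0.46 ± 0.21, adjusted p = 0.0787), and its log2 fold change was -0.0049 without that replicate. It was called without PBS replicate 2 (-0.63) or 3 (-0.66).

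H2AFJ encodes H2A.J, an H2A known to build up in senescent cells. It was at 11.9, 11.6 and 13.2 CPM in PBS, 21.1, 19.9 and 21.0 CPM in the P-DXd-titled group and 20.7, 22.2 and 25.4 CPM in the T-DXd-titled group. Every treated library was higher than every PBS library (0.81 ± 0.10, SE; adjusted p = 8.31e-05).

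H3F3A and H3F3B encode the same protein, H3.3, the H3 laid down outside replication. H3F3A was at 217, 189 and 194 CPM in PBS and 258 to 317 CPM after treatment (0.48 ± 0.09, SE; adjusted p = 0.00120), and H3F3B at 1258, 1165 and 1253 CPM against 1338 to 1464 CPM (0.19 ± 0.07; adjusted p = 0.0329). Neither gene's groups overlapped, but both differences were under the fold change minimum. The same held for H1FX, the linker histone H1.10, at 43.4, 42.0 and 44.6 CPM against 53.6 to 60.2 CPM (0.37 ± 0.06; adjusted p = 0.000542).

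H1F0, the linker histone H1.0 of cells that divide little, was at 543, 492 and 549 CPM in PBS and 537 to 615 CPM after treatment, and did not pass the test (0.12 ± 0.07; adjusted p = 0.153). The macroH2A genes H2AFY (-0.26 ± 0.10, adjusted p = 0.0361) and H2AFY2 (-0.52 ± 0.18, adjusted p = 0.0296) were not called. H2AFY2 was at 50.2, 31.0 and 25.2 CPM in PBS and 23.2 to 28.5 CPM after treatment; it was called without PBS replicate 2 or 3. CENPA, the H3 of centromeres, which the symbols used here leave out, fell from 27.9 ± 6.76 CPM in PBS to 4.96 ± 0.82 in the P-DXd-titled group and 2.81 ± 0.54 in the T-DXd-titled group (SD, n = 3; log2 fold change -2.87 ± 0.26, SE).

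**Figure D4:**
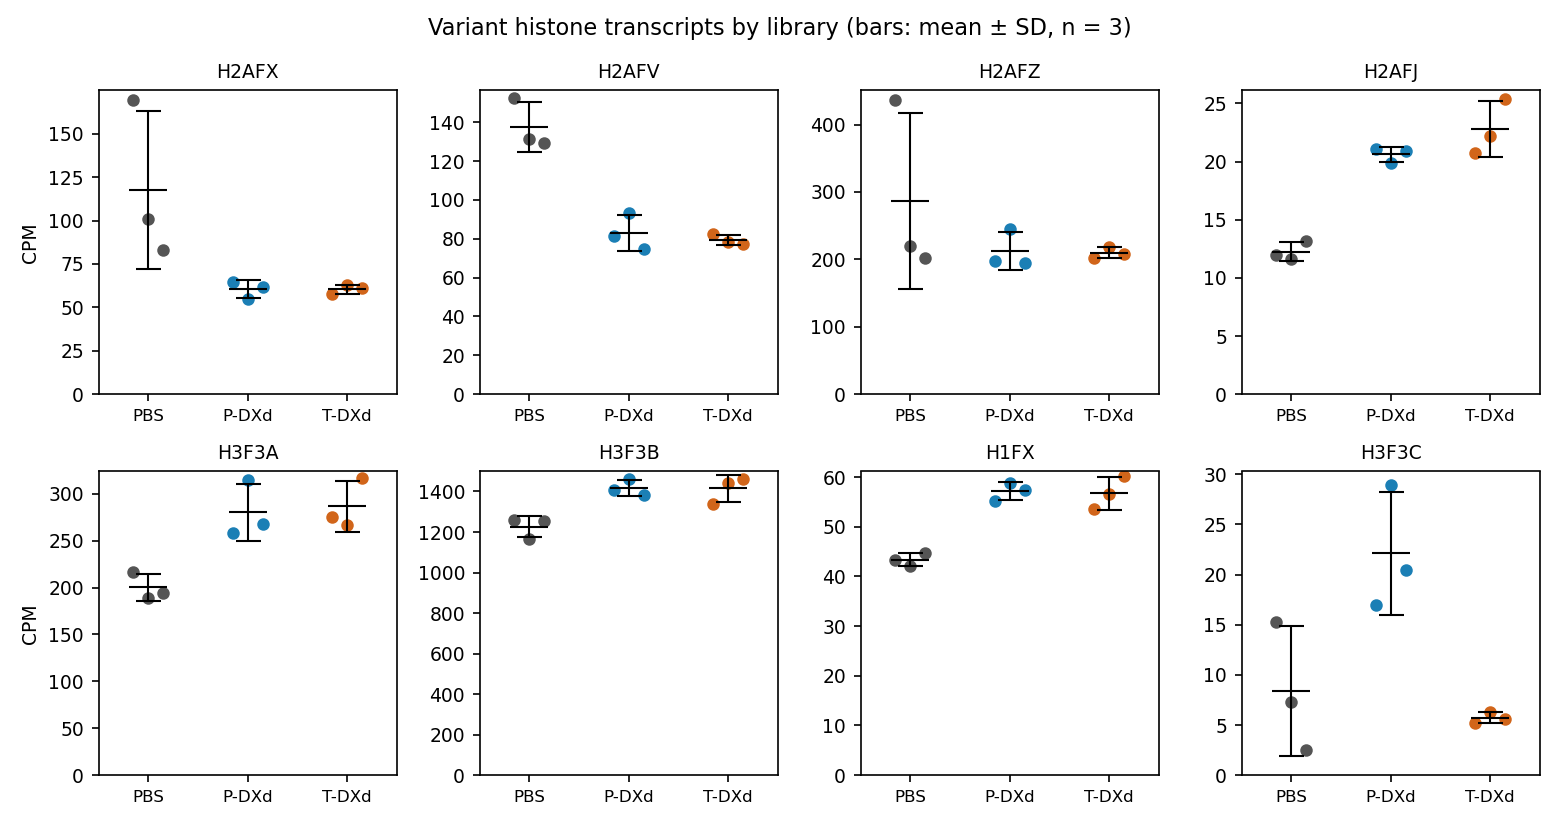
CPM of 8 variant genes; points are libraries, bars mean ± SD, n = 3, groups named by title, and y axes differ between panels. H2AFX was 83.1 to 169 CPM in PBS and 55.1 to 64.9 CPM after treatment, H2AFJ 11.6 to 13.2 and 19.9 to 25.4 CPM, and H3F3C was higher in the 3 P-DXd-titled than in the 3 T-DXd-titled libraries.

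Each conjugate group was then compared with the same 3 PBS libraries. In P-DXd-titled xenografts 5 of 44 tested cluster genes were higher (11.4%) and 4 lower (9.09%), where 11.2% and 13.8% of all genes were. The total of 9 was 5 without PBS replicate 2 and 4 without P-DXd-titled replicate 3. In T-DXd-titled xenografts 7 of 45 were higher (15.6%) and 6 lower (13.3%), where 13.1% and 15.5% of all genes were. The total of 13 was 7 without T-DXd-titled replicate 3. HIST1H2AC had a log2 fold change of 1.43 ± 0.16 in the P-DXd-titled group and 1.38 ± 0.12 in the T-DXd-titled group, and HIST2H2BE of 1.78 ± 0.34 and 1.67 ± 0.32 (SE).

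H2AFJ was called higher and H2AFX and H2AFV lower in each comparison. H2AFX differed by -0.97 ± 0.26 in the P-DXd-titled group and -0.98 ± 0.25 in the T-DXd-titled group (SE). In each comparison its call was lost without any 1 of the 3 treated libraries, and in the T-DXd-titled group also with a block on the first digit of the animal code (-0.84, adjusted p = 0.0661).

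Between the conjugate groups, 1 histone gene was called. Of all 14653 genes tested 0.0273% were, and of 39 cluster genes 0, with 0 at an unadjusted p under 0.05. DESeq2 likewise called 1 histone gene. The difference, P-DXd-titled minus T-DXd-titled on the log2 scale, was 0.04 for HIST1H2AC (95% interval -0.21 to 0.29), 0.10 for HIST2H2BE (-0.16 to 0.36) and 0.00 for H2AFX (-0.17 to 0.17). The interval lay within 1.5-fold either way for 10 of 11 variants and for 10 of 39 cluster genes but reached past it for the other 29.

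The called gene was H3F3C, a copy of H3F3B without introns that encodes H3.5 and is known from testis. It was at 16.9, 28.9 and 20.4 CPM in the P-DXd-titled group, 5.23, 6.34 and 5.65 CPM in the T-DXd-titled group and 15.3, 7.29 and 2.52 CPM in PBS. All P-DXd-titled values were above all T-DXd-titled and PBS values, and the PBS libraries spread across the T-DXd-titled range. The difference was 1.94 ± 0.18 (SE; adjusted p = 0.0101), and neither group was called against PBS (1.39 ± 0.58, adjusted p = 0.0982, and -0.57 ± 0.56, adjusted p = 0.442). The P-DXd-titled group was called higher than PBS by DESeq2 (adjusted p = 0.0204), in 1 edgeR fit of all 9 libraries (0.0480) and without PBS replicate 1 (0.00392), and the T-DXd-titled group was called lower without PBS replicate 3 (0.0463). Without PBS replicate 1 the T-DXd-titled difference was 0.21, and with the block on animal code it was 0.04. The call was lost without T-DXd-titled replicate 1 (adjusted p = 0.117) or 3 (0.151) and in 1 fit of all 9 libraries, where PBS enters the spread. In 100-base windows, 1.58% of H3F3C transcript sequence also occurred in another gene, H3F3B.

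Genes that make, carry or load histones were taken as lists chosen with earlier results of these data known, again for both conjugates against PBS. Of 18 tested genes of histone mRNA synthesis and processing 9 were lower and 9 not called (median log2 fold change -0.60), beside 17.1% of all genes called lower. The largest falls were those of the cyclins CCNA2 (-2.71 ± 0.18, SE), CCNE2 (-1.88 ± 0.19) and CCNE1 (-1.65 ± 0.21), which drive S phase. CDK2 and E2F1, like these cyclins general cell cycle genes, were lower too. The rest of the 9 were CPSF2, CSTF2, ERI1 and ZC3H8. LSM10, LSM11 and ZNF473 were not called, so the count does not describe histone mRNA processing alone. SLBP was 63.4 ± 2.00 CPM in PBS and 46.5 ± 4.39 and 46.7 ± 0.92 after treatment (SD, n = 3), short of the fold change minimum (-0.47 ± 0.07, SE). NPAT, the coactivator of cluster histone genes, had -0.25 ± 0.08, and CASP8AP2 was not in both tables.

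Beside 17.1% of all genes called lower, 7 of 12 genes that deposit H3-H4 behind the replication fork were lower and 5 not called. ASF1B (-1.94 ± 0.16, SE), TONSL (-1.80 ± 0.16) and MMS22L (-1.74 ± 0.20) fell most. Of 7 H2A-H2B chaperones 4 were lower and 3 not called, led by NPM1 (-1.05 ± 0.12), NCL (-0.90 ± 0.10) and NAP1L1 (-0.73 ± 0.11). Of 19 genes of variant deposition 8 were lower and 11 not called, led by CENPA and its loaders HJURP (-2.52 ± 0.18) and OIP5 (-2.16 ± 0.22).

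All 26 tested genes of the S-phase list were lower (median -1.62), beside 17.1% of all genes. Among them were CLSPN (-2.45 ± 0.23, SE), a checkpoint adaptor at the fork, and POLE2 (-2.37 ± 0.34), a DNA polymerase subunit. The list also held MKI67, which marks cycling cells in every phase (-3.05 ± 0.18). The summed level of the list was 3637, 2550 and 2303 CPM in PBS replicates 1 to 3 and 1000 to 1209 CPM after treatment. PBS replicate 1 was thus highest, as it was for H2AFX, H2AFV, H2AFZ and 8 of the 9 cluster genes called lower, HIST3H3 excepted, and whether that library accounts for their changes was not tested beyond the values without it.

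**Figure D5:**
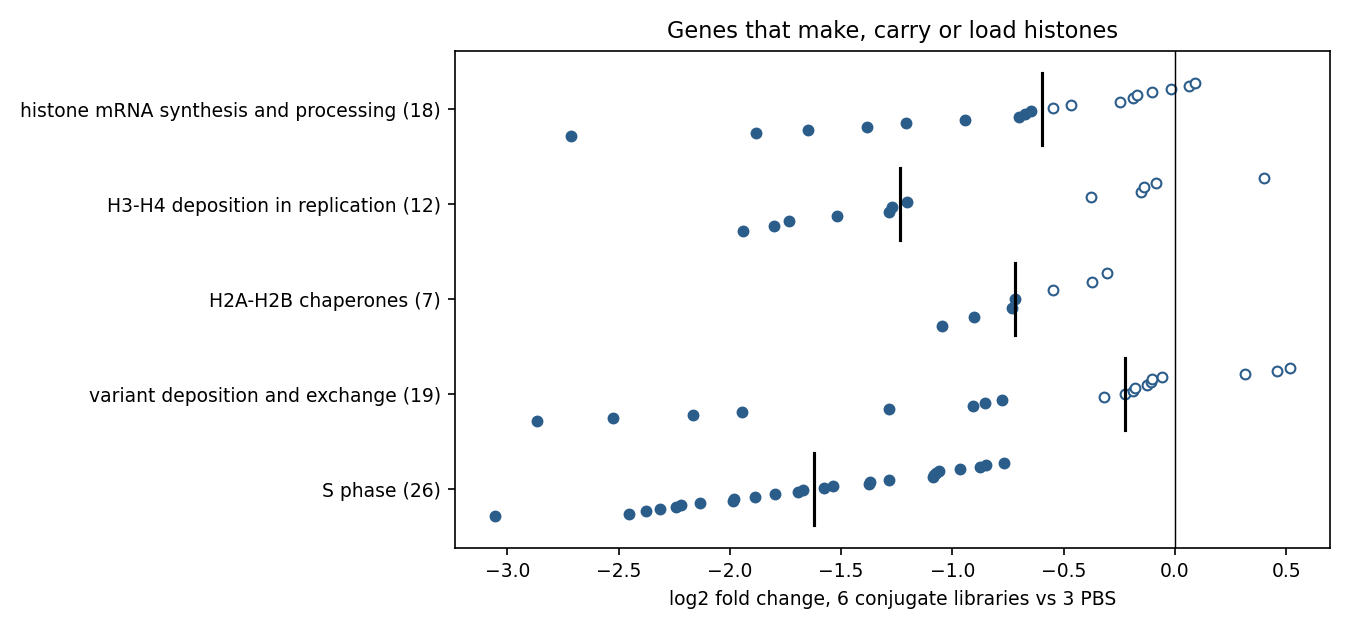
Log2 fold change (x axis) of each tested gene of 5 lists, 6 conjugate libraries against 3 PBS, with the number tested in brackets; filled points were called and the black line is the list's median. Called genes all lay below 0, and the S-phase median was -1.62.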

How the data were processed

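Total RNA from each xenograft was made into Illumina TruSeq mRNA libraries. Per the labels and the study's methods, the authors used Cutadapt for trimming, STAR for alignment to GRCh38.p13 and featureCounts for gene totals. The deposited values are raw counts per gene in 2 tables, one for each conjugate group, which share the PBS libraries. The listed coordinates did not match the GRCh38 reference used here, although the methods name GRCh38.p13. HIST1H2AC, for example, was listed at 26124373 to 26139344, but lies at 26124145 to 26139116 in GENCODE v44. The gene models behind the counts may thus differ from those used here, and only gene spans were taken from the listed coordinates. No per-sample column was left out. A total per gene does not show which end of a transcript gave the reads, and strand is not given in the sources used here.

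Counts were tested with edgeR 4.0.16 (R 4.3.3): TMM, filterByExpr, quasi-likelihood fit and two-sided test, with Benjamini-Hochberg adjustment over all genes tested. The fits of both conjugates against PBS and of the conjugates against each other used genes in both tables. DESeq2 1.42.0 was an alternative, as were RLE size factors, other filters, thinning each library to 54480915 counts, a block on the first digit of the animal code, and leaving out each library. The edgeR fit was tested on simulated data, with 200 genes of at least 20 counts on average changed 3-fold. That simulation does not speak for sparser genes or smaller changes. Replicates bear separate animal codes in their titles, and those of a group differed beyond sampling noise (chi-square per gene 17.8 to 396). Precision is limited by counting error for genes of few reads. Named genes were all tested variants, the 6 cluster genes of highest mean CPM, the 8 called cluster genes with the largest rise and fall among those with a mean of at least 20 counts, genes called between conjugates, CENPA, SLBP, NPAT, CASP8AP2 and up to 3 called genes per list. The members and lists were chosen with earlier results of these data known. More genes of the histone mRNA list were named to show what it held. Stem-loops and shared 100-base windows came from GENCODE v44 transcripts, and promoters from RefSeq (GRCh38.p14).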

Additional observations from a re-analysis of the deposited data

Results flagged for a closer look

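H3F3C was the histone gene with a tested difference between the conjugate groups, P-DXd-titled minus T-DXd-titled, of 1.94 on the log2 scale. The 3 P-DXd-titled libraries lay above the 3 T-DXd-titled libraries, and the PBS libraries ranged from 2.52 to 15.3 CPM. Leaving out each library in turn gave 1.703 to 2.105.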

How the results depend on the processing

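For both conjugates against PBS, the cluster genes called numbered 17, and 15 to 19 when each library was left out. They were 19 with DESeq2, 16 with the block on animal code, and 11 among genes with at least 10 counts in every library, a stricter filter that tests fewer genes. Split after the data were seen, 6 were of genes with an extended transcript and 11 of genes without. The variants called were 3, 3 to 5 with each library left out, and 8 with no fold change minimum. The ratio of cluster CPM was 1.74, 1.68 to 1.80 with each library left out, and 1.39 without HIST1H2AC. In P-DXd-titled xenografts the cluster count of 9 became 4 to 8 with each library left out. The variant count of 3 became 2 to 4, and was 5 both in 1 fit of all 9 libraries and with no fold change minimum. In T-DXd-titled xenografts the cluster count of 13 became 7 to 15, and 8 with at least 10 counts in every library. The variant count became 2 to 4, and 5 with no fold change minimum. Between conjugates the 1 histone call became 0 to 1 with each library left out and 0 in 1 edgeR fit of all 9 libraries, with 1 at an unadjusted p under 0.05; DESeq2 called 1. The causes were not tested. Alternative log2 fold changes of the named histone genes were also counted, for both conjugates against PBS only. Of these 309 kept their side of the threshold, 12 lost it, 4 gained it and 0 reversed. The alternatives were each library left out, DESeq2, RLE size factors, thinned counts and the block on animal code. The other filters and the setting with no fold change minimum did not enter. Genes of few reads and close copies are limited by depth and by how reads were assigned. No paired analysis was possible because the titles give animal codes and no replicate number shared by the groups. The block on the first digit of those codes is not known to be a batch.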
